A study of Mus musculus with 9 samples.

Results

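Mmd2, Atp2b2, Sdr9c7, Stap1, Slc41a2, Hapln4 and Pter are 7 genes whose liver RNA was lowest in mice fed a high-iron diet. They were chosen by their measured counts, because all were lower in high-iron livers than in sufficient-iron and low-iron livers. The 7 genes are among 23420 genes in the count tables and among the 13020 with enough reads to be tested. RNA was sequenced from the livers of 9 male wild-type C57/BL6 mice, 3 per diet, 1 library per mouse. From 5 weeks of age the mice ate a purified, soy-free AIN-93G feed for 50 days, and livers were taken at 12 weeks. The feed held 2.5 mg iron per kg in the low-iron group, 37.5 mg per kg in the sufficient group and 1000 mg per kg in the high-iron group. All groups share sex, strain and base feed, so iron content is the labelled difference. Hjv knockout mice named in the protocol are not analysed here.

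The libraries held 22 to 33.8 M (mega) reads in genes. A pair of libraries stood apart by their share of reads from Rn45s, the precursor of ribosomal RNA: 43.7% in low-iron replicate 1 and 40.5% in high-iron replicate 12, where the remaining 7 had 12.5% to 23.8%. Hamp, the gene of the iron hormone hepcidin, averaged 9.09 ± 11.2 CPM (read counts scaled to library size) in low-iron, 199 ± 72.2 CPM in sufficient-iron and 715 ± 212 CPM in high-iron livers (SD, n = 3 each), which is the order of the diets. Hepatocyte markers were abundant in every library, at a summed 67100 to 76000 CPM with low, 52700 to 70100 CPM with sufficient and 50400 to 61500 CPM with high iron.

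The liver stores most of the body's excess iron and senses it, and it sets iron uptake from food through hepcidin. The 7 genes do not form 1 pathway, and most are best known outside the liver. Mmd2 encodes a Golgi membrane protein of the PAQR family, to which the adiponectin receptors belong. Atp2b2 encodes a plasma membrane pump that drives calcium out of cells, known from hair cells of the inner ear and from the cerebellum. Slc41a2 encodes a magnesium transporter. Sdr9c7 encodes a short-chain dehydrogenase, which in human skin is needed for the lipid barrier. Pter encodes a hydrolase that splits N-acetyltaurine in mice. Stap1 encodes a signalling adaptor of blood cells with PH and SH2 domains, and Hapln4 a link protein that ties hyaluronan to proteoglycans in brain matrix.

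RefSeq promoter windows (GRCm38.p6) matched 5 of the 7 genes: Mmd2, Atp2b2, Slc41a2, Sdr9c7 and Pter. The 4 stretches printed here let the control regions of the genes with a single RefSeq start be compared, since these genes were low in the same livers. Each runs 5′ to 3′ towards the start of the gene and stops before the first base that the GENCODE M21 annotation places in an exon. Capitals mark motif letters found on either strand.
Mmd2, chr5:142608801-142609002, minus strand: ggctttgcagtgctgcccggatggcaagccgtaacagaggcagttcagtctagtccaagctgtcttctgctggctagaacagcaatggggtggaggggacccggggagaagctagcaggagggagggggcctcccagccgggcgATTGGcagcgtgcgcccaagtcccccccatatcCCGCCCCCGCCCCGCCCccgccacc
Slc41a2, chr10:83337883-83338067, minus strand: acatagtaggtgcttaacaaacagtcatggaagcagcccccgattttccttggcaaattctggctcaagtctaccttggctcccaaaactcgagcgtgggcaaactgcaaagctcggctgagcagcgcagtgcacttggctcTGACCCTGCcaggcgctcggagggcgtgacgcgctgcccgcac
Sdr9c7, chr10:127898285-127898517, plus strand: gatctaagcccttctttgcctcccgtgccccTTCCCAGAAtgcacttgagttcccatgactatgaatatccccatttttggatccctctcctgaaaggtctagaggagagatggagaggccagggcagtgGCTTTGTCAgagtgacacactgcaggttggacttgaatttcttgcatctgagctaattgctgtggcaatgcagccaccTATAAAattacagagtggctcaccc
Pter, chr2:12923791-12924040, plus strand: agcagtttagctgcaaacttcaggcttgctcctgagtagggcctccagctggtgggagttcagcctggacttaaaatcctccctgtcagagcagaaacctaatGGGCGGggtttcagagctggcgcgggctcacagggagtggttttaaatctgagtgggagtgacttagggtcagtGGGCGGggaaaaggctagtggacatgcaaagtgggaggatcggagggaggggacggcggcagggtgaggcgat
The motifs searched, on both strands, over the 250 bases before each start were the TATA box TATAAA, the CCAAT box CCAAT, the GC box GGGCGG, the nuclear receptor half-site AGGTCA, the forkhead motif TGTTTNC, the STAT motif TTCNNNGAA, the interferon motif GAAANNGAA, the antioxidant response core TGACNNNGC, the HNF1 half-site GTTAAT, the SMAD motif GGCGCC, the hypoxia response core ACGTG and the AP-1 motif TGAGTCA. No motif stood before all 5 genes. The GC box was found before Mmd2, Atp2b2 and Pter, and 32.7% of all 32851 windows and 55.4% of those of tested genes hold it. In Mmd2 it occurred 3 times, at 73 to 68, 67 to 62 and 62 to 57 bases before the start, so the last pair share 1 base. The antioxidant response core was found before Atp2b2, Sdr9c7 and Slc41a2, at 13 to 5 bases before the third of the Atp2b2 starts, 120 to 112 bases before that of Sdr9c7 and 108 to 100 bases before that of Slc41a2. It stands in 10.2% of all windows and in 11.8% of those of tested genes. Sdr9c7 alone of the 5 had a TATA box, 42 to 37 bases before its start (12.4% of all windows and 6.95% of those of tested genes), and a STAT motif (7.02% and 6.18%). Mmd2 alone had a CCAAT box, 106 to 102 bases before its start (33.8% of all windows and 35.3% of those of tested genes). Slc41a2 alone had the hypoxia response core, 68 to 64 and 16 to 12 bases before its start (16.6% of all windows and 21.1% of those of tested genes), both reaching into an annotated exon and so not among the printed letters. The nuclear receptor, forkhead, interferon, HNF1, SMAD and AP-1 letters were in none of the 7 windows of these genes. They occur in 14%, 17.8%, 7.13%, 6.43%, 9.59% and 4.46% of all windows. Among windows of tested genes the shares are 11.3%, 13.9%, 6.39%, 4.46%, 16.1% and 3.47%. The windows also differed in base composition. GC made up 67.2% of the 250 bases of Mmd2, 59.6% of Slc41a2, 57.6% of Pter and 49.6% of Sdr9c7, against a median of 52.4% over all windows. The window of Sdr9c7 held 2 CG pairs and that of Slc41a2 18, against a median of 6.

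The 7 genes lie on 5 chromosomes in GRCm38. Mmd2 (chr5:142562358-142608800) and Stap1 (chr5:86071746-86106125) share chromosome 5. Slc41a2 (chr10:83230848-83337882) and Sdr9c7 (chr10:127898518-127911761) share chromosome 10, far apart. Pter lies at chr2:12924041-13003455, Atp2b2 at chr6:113743831-114042613 and Hapln4 at chr8:70083457-70090862. By whole gene span, Atp2b2 overlaps 3 annotated non-coding genes, 2 of them on the opposite strand and the other annotated as intronic. Whether exons overlap was not examined, and the strand setting of the counting is unknown here. Stap1 overlaps a small nuclear RNA gene and Slc41a2 a processed pseudogene, while the other 4 genes overlap nothing.

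Per kilobase of exon, the sufficient-iron mean was 16.8 CPM per kb for Pter, 13.7 for Sdr9c7, 4.56 for Slc41a2, 1.72 for Hapln4, 1.36 for Mmd2, 0.6 for Stap1 and 0.452 for Atp2b2. Pter and Sdr9c7 were thus the most abundant of the 7 per length and Atp2b2 the least. With high iron the order at the low end changed, with Hapln4 at 0.52, Stap1 at 0.171, Mmd2 at 0.0774 and Atp2b2 at 0.0498 CPM per kb.

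Mmd2, the Golgi PAQR protein gene, had few reads in high-iron livers. It had 5.3, 6.04 and 6.66 CPM in low-iron replicates 1, 5 and 9, and 4.08, 12.3 and 4.83 CPM in sufficient-iron replicates 2, 6 and 10. In high-iron replicates 4, 8 and 12 it had 0.568, 0.157 and 0.481 CPM, from 17, 5 and 9 reads. All 3 high-iron values lay below the lowest value of the other diets, while low-iron and sufficient-iron values overlapped and replicate 6 stood alone at the top. The exact 95% Poisson interval of the lowest library, which covers counting error only, ran from 0.0511 to 0.367 CPM. The high-iron mean of 0.402 ± 0.217 CPM was 5.69% of the sufficient-iron mean of 7.07 ± 4.54 CPM and 6.7% of the low-iron mean of 6 ± 0.678 CPM (SD, n = 3 each). Its fitted log2 fold change of -4.17 between high and sufficient iron was the lowest of 13020, a place that is part of why it was chosen.

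Atp2b2, the plasma membrane calcium pump gene, had 3.43, 3.44 and 2.78 CPM with low iron and 8.13, 5.87 and 3.12 CPM with sufficient iron. With high iron it had 0.568, 0.409 and 0.908 CPM, from 17, 13 and 17 reads. High-iron values again lay below all others. One sufficient-iron mouse lay within the low-iron range and the other 2 above it. Means were 3.22 ± 0.376 CPM with low, 5.7 ± 2.51 CPM with sufficient and 0.628 ± 0.255 CPM with high iron, so the high-iron mean was 11% of the sufficient-iron mean and 19.5% of the low-iron mean. In bulk liver RNA, fewer cells of a type and less RNA per cell cannot be told apart, for these and for the following genes.

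Slc41a2, the magnesium transporter gene, had 16.7, 32.7 and 21.4 CPM with low iron, 28.4, 22.8 and 22 CPM with sufficient iron and 10.7, 4.5 and 6.62 CPM with high iron. Low-iron mice spanned the whole sufficient-iron range, and the high-iron mice were all lower. The high-iron mean of 7.29 ± 3.17 CPM was 29.9% of the sufficient-iron mean of 24.4 ± 3.49 CPM and 30.9% of the low-iron mean of 23.6 ± 8.25 CPM.

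The 2 enzyme genes were the most abundant. Sdr9c7, the short-chain dehydrogenase gene, had 49.6, 58.1 and 50.1 CPM with low iron, 55.1, 32.9 and 36.8 CPM with sufficient iron and 20.1, 16.2 and 13.4 CPM with high iron. Its means were lower at each step of the diets, at 52.6 ± 4.76, 41.6 ± 11.9 and 16.6 ± 3.38 CPM from low to high iron, though sufficient-iron replicate 2 lay within the low-iron range. Pter, the N-acetyltaurine hydrolase gene, had 82.4, 72.3 and 77.8 CPM with low iron, 80.1, 82.9 and 72.8 CPM with sufficient iron and 52.3, 50.4 and 43.7 CPM with high iron. Its fall was the smallest of the 7, and its libraries lay close together, with a coefficient of variation of 6.53% with low, 6.64% with sufficient and 9.25% with high iron. The high-iron mean of Pter, 48.8 ± 4.51 CPM, was 62.1% of the sufficient-iron mean of 78.6 ± 5.22 CPM, and that of Sdr9c7 was 39.8% of its sufficient-iron mean.

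Stap1, the blood-cell adaptor gene, had 2.11, 3 and 3.42 CPM with low iron, 2.7, 5.04 and 3.45 CPM with sufficient iron and 1.04, 0.975 and 1.18 CPM with high iron. Hapln4, the link protein gene, had 7.41, 8.19 and 5.85 CPM with low iron, 9.77, 4.26 and 6.21 CPM with sufficient iron and 2.07, 1.86 and 2.19 CPM with high iron. In both genes the 3 high-iron mice lay close together and below the other 6, and low-iron and sufficient-iron mice overlapped. The high-iron mean was 1.06 ± 0.102 CPM for Stap1, 28.5% of the sufficient-iron mean of 3.73 ± 1.2 CPM. For Hapln4 it was 2.04 ± 0.17 CPM, 30.2% of the sufficient-iron mean of 6.74 ± 2.79 CPM.

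**Figure D1:**
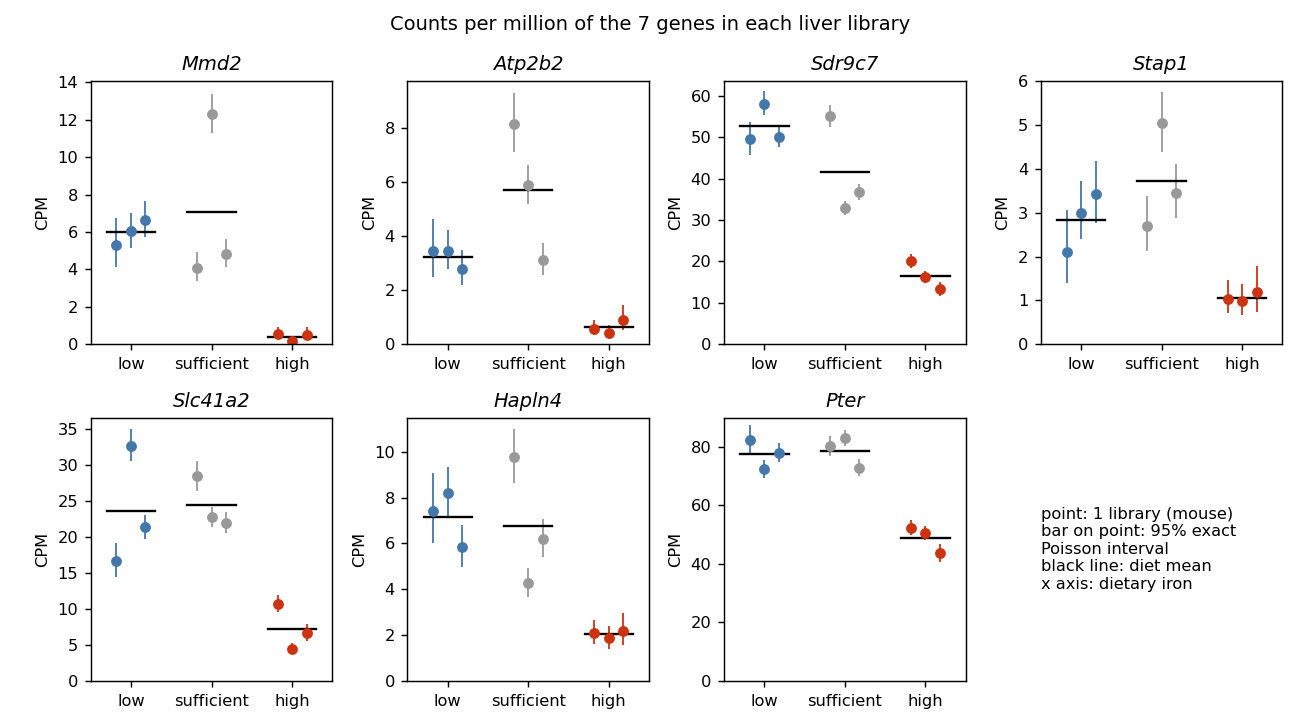
CPM of each gene (y axis, from 0) in every library, by dietary iron from low to high (x axis); points are libraries with exact 95% Poisson intervals for counting error and black lines are diet means. All 3 high-iron libraries sit below the other 6 in each panel, and Mmd2 in sufficient-iron replicate 6 reaches 12.3 CPM.

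From sufficient to high iron the fitted log2 fold changes (edgeR quasi-likelihood model, all 9 libraries) were -4.17 for Mmd2, -3.23 for Atp2b2, -1.83 for Stap1, -1.74 for Slc41a2, -1.72 for Hapln4, -1.32 for Sdr9c7 and -0.69 for Pter. Between high and low iron they were -3.94 for Mmd2, -2.40 for Atp2b2, -1.45 for Stap1, -1.70 for Slc41a2, -1.81 for Hapln4, -1.66 for Sdr9c7 and -0.67 for Pter. These contrasts chose the genes and share the high-iron libraries, so calls in them are no test of the genes. The calls are given as a description only. Past the threshold of adjusted p under 0.05 were 5 of the 7 between high and sufficient iron, all but Slc41a2 and Hapln4, where 0.115% of all tested genes were called lower. Between high and low iron it was 6 of 7, all but Stap1, where 0.346% of all tested genes were called lower. All 7 had high-iron values below every sufficient-iron value, as did 8.85% of tested genes. The choice of the genes favours high counts here, and nothing is read from them. Without high-iron replicate 12, of high Rn45s share, 1 of the 7 (Atp2b2) passed between high and sufficient iron, and 0 passed without high-iron replicate 4 or 8. All 7 values stayed negative, a sign that the choice of the genes fixes. Without low-iron replicate 5 or 9 or sufficient-iron replicate 10, 2 passed (Atp2b2 and Mmd2), and without sufficient-iron replicate 2, 3. In the contrast of high and low iron 0 of the 7 passed without low-iron replicate 9 or without high-iron replicate 4, 8 or 12, and 2 (Mmd2 and Sdr9c7) without low-iron replicate 5. The median over the 7 was -1.74 between high and sufficient iron, beside -0.01 over all tested genes.

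The step between low and sufficient iron was not itself used to choose the genes, but both of its diets entered the choice. Each had to lie above high iron, and the step is the difference between the contrasts that chose the genes. Its values are therefore not independent of the choice, which may favour low-iron and sufficient-iron values that lie close together. None of the 7 genes passed the test between low and sufficient iron. In edgeR 0 of 7 passed and 1, Atp2b2, had an unadjusted p under 0.05. Over all 13020 genes 0 passed (0%), and the unadjusted p was under 0.05 in 1458. Hamp did not pass in edgeR either, at a log2 fold change of -4.55 (adjusted p = 0.446), so a gene that failed here may still differ. The other tools called 103 (DESeq2), 0 (limma-voom) and 2 genes (limma-voom with quality weights), and none of the 7 was among them. DESeq2 gave none of the 7 an adjusted p at this step, so it could not have called them. Atp2b2 had a log2 fold change of -0.83 ± 0.33 (SE; 95% interval -1.56 to -0.09; adjusted p = 0.446), or -0.49 without sufficient-iron replicate 2, with a low-iron mean of 56.4% of the sufficient-iron mean. It was lower in all 3 low-iron mice than in sufficient-iron replicates 2 and 6, but sufficient-iron replicate 10 lay within the low-iron range. Stap1 had -0.38 ± 0.26 (-0.95 to 0.20; adjusted p = 0.549) and Mmd2 -0.24 ± 0.40 (-1.12 to 0.64; adjusted p = 0.808). The estimate of Mmd2 leaned on sufficient-iron replicate 6 and was 0.43 without it. Sdr9c7 had a positive value, 0.34 ± 0.20 (-0.10 to 0.78; adjusted p = 0.496).

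For the other 3 genes the step was close to 0. Hapln4 had 0.09 on the log2 scale (-0.50 to 0.68; adjusted p = 0.894), Slc41a2 -0.04 (-0.69 to 0.62; adjusted p = 0.968) and Pter -0.02 (-0.26 to 0.22; adjusted p = 0.946). Pter had the narrowest interval, and that of Slc41a2 leaves room for a value of -0.69 or 0.62. Groups overlapped between low and sufficient iron in all 7 genes, while they did not overlap in 16.6% of tested genes. The median over the 7 was -0.04, beside -0.004 over all tested genes.

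**Figure D2:**
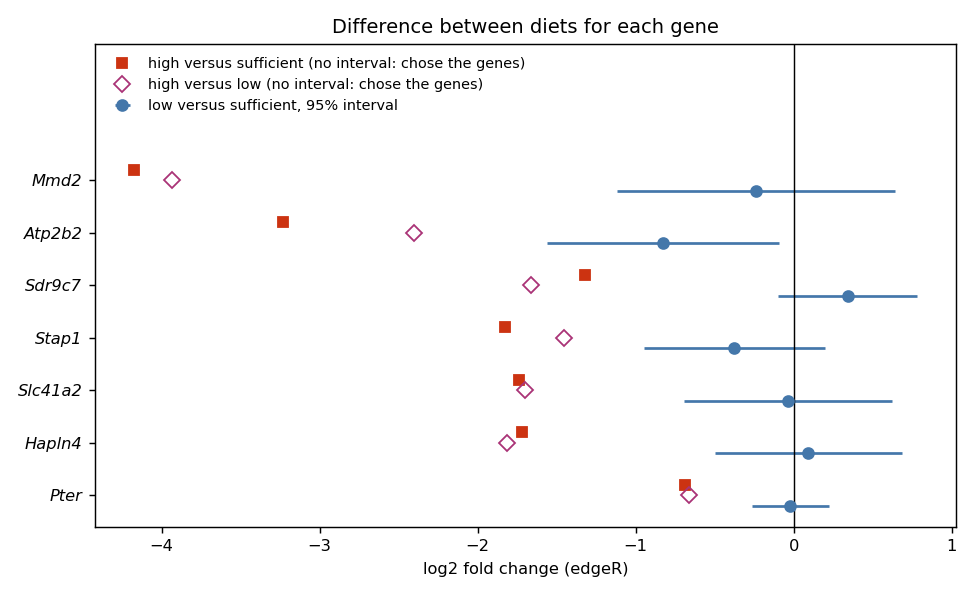
Log2 fold change of each gene (x axis) between high and sufficient iron (squares), high and low iron (open diamonds) and low and sufficient iron (circles with 95% intervals). The circles lie between -0.83 and 0.34, and only the interval of Atp2b2, -1.56 to -0.09, leaves out 0.

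Whether the 7 genes moved together from mouse to mouse was examined after taking out the mean of each diet, a variation that the choice of the genes did not use. Over all 9 libraries, diet differences included, the 21 pairs correlated at 0.74 to 0.96 (Pearson r of log2 CPM, median 0.89), as genes chosen for 1 pattern must. Within diets the median was 0.12, with 12 pairs positive and 9 negative. The strongest positive pairs were Mmd2 with Stap1 and Sdr9c7 with Hapln4, both at 0.71, and Sdr9c7 with Slc41a2 at 0.58. Stap1 and Hapln4 went opposite ways, at -0.76, as did Stap1 and Sdr9c7 at -0.57 and Mmd2 and Hapln4 at -0.51. Sufficient-iron replicate 6 bears on several of these pairs. It held the highest Mmd2 and Stap1 values of all 9 libraries and the lowest Sdr9c7 and Hapln4 values of its diet. Without it, r was 0.42 for Mmd2 with Stap1, 0.06 for Mmd2 with Hapln4, -0.48 for Stap1 with Hapln4 and 0.58 for Sdr9c7 with Hapln4. With each library left out in turn, r ran from 0.26 to 0.91 for Sdr9c7 with Hapln4, from -0.81 to -0.21 for Sdr9c7 with Stap1, from 0.42 to 0.83 for Mmd2 with Stap1, from -0.87 to -0.48 for Stap1 with Hapln4 and from 0.36 to 0.73 for Sdr9c7 with Slc41a2. These are descriptions over 9 libraries that share depth and scaling. Pter was near 0 with Mmd2 (0.08) and Atp2b2 (-0.02), and its strongest pair was Sdr9c7 at 0.30.

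**Figure D3:**
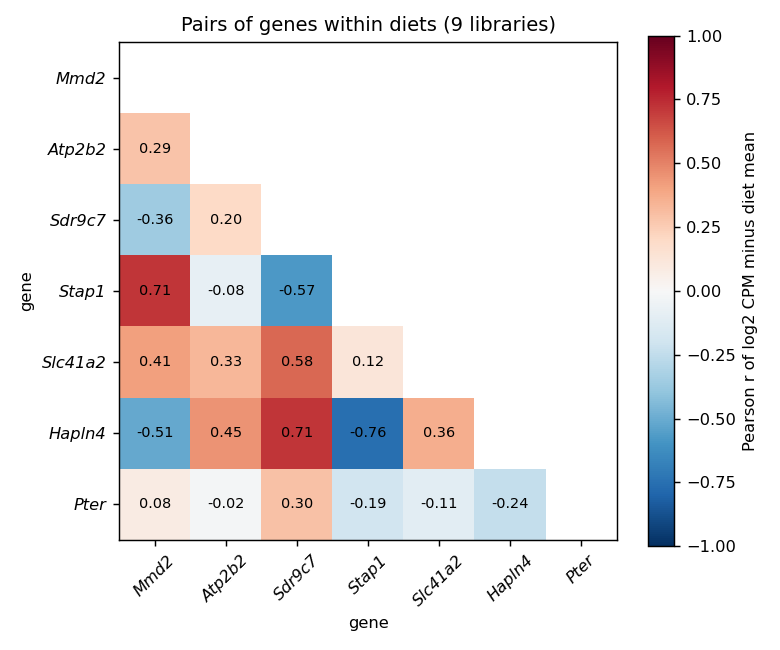
Pearson r between pairs of the 7 genes (both axes) over 9 libraries, on log2 CPM minus the mean of the diet; red is positive and blue negative. The cells run from -0.76 for Stap1 with Hapln4 to 0.71 for Sdr9c7 with Hapln4 and for Mmd2 with Stap1.

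Relatives of the 7 genes, in lists made from knowledge of the families and pathways, were followed through the same diets. Of 136 listed relatives, 130 were in the tables and 104 had enough reads to be tested. Between high and sufficient iron 1 rose (Hsd17b11) and 1 fell (Acnat2), where 0.215% of all tested genes changed in either direction. An unadjusted p under 0.05 was reached there by 17 of the 104 and by 1208 of all 13020 genes, and DESeq2 called 5 of the 104 and 211 genes in all. Between high and low iron 1 rose (Hsd17b11) and 2 fell (Acnat2 and Bhmt), where 0.507% of all tested genes changed. Between low and sufficient iron 0 of 104 passed in edgeR, where 20 had an unadjusted p under 0.05 (1458 of all genes). In DESeq2 5 relatives and 103 genes in all passed. DESeq2 left genes without an adjusted p at this step, the 7 among them, so its calls cannot be read as a share of the 104. The 7 genes themselves are left out of these counts. Between high and sufficient iron both calls were lost without high-iron replicate 4 or 8, that of Acnat2 also without high-iron replicate 12, and that of Hsd17b11 also without low-iron replicate 9 or sufficient-iron replicate 6 or 10. Between high and low iron the call of Bhmt was lost without any 1 low-iron or high-iron library, that of Hsd17b11 without any 1 low-iron library, sufficient-iron replicate 10 or high-iron replicate 4 or 8, and that of Acnat2 without any 1 high-iron library.

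Mmd2's family, the PAQR genes, had values on both sides of 0. Between high and sufficient iron 0.215% of all tested genes were called, so 0 calls in a short list, here and below, say little. Of 8 tested PAQR genes 0 passed at this step, with 4 positive and 4 negative values and a median of -0.004. Mmd, the closest paralog, known from maturing macrophages, had 182, 184 and 163 CPM in high-iron livers, against 139, 127 and 146 CPM in sufficient-iron livers. These groups do not overlap and Mmd lies on the higher side with high iron, a log2 fold change of 0.36 (95% interval 0.10 to 0.63) that did not pass (adjusted p = 0.399). Of 5 tested calcium pump genes besides Atp2b2, 0 passed. Atp2b1, the housekeeping pump of the plasma membrane, averaged 26.3 ± 1.89 CPM with high iron and 34.1 ± 4.12 CPM with sufficient iron (log2 fold change -0.38, adjusted p = 0.297). Atp2b4 stood at 0.00 (adjusted p = 0.998) and Atp2a2, the pump of the endoplasmic reticulum, at -0.30 (adjusted p = 0.544). Of 15 genes of calcium entry, exchange and release 0 passed, with a median of -0.05.

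Among 16 tested retinol and hydroxysteroid dehydrogenases related to Sdr9c7, 10 had positive values between high and sufficient iron. Hsd17b11, a dehydrogenase of lipid droplets, had 259, 308 and 217 CPM in high-iron livers, against 142, 125 and 120 CPM in sufficient-iron livers and 146, 156 and 151 CPM in low-iron livers. It rose by 1.02 on the log2 scale over sufficient iron (adjusted p = 0.0305), opposite in sign to Sdr9c7. Rdh16, a retinol dehydrogenase of the same gene cluster, averaged 255 ± 16.5 CPM with high iron and 147 ± 27.9 CPM with sufficient iron (0.80). It did not pass in edgeR (adjusted p = 0.0634), but did in DESeq2, in limma-voom with quality weights, with no filter on low counts, and without low-iron replicate 1 or sufficient-iron replicate 2. Rdh7 had a value of -0.08 (adjusted p = 0.841) and Rdh9 one of 0.39 (adjusted p = 0.4). Alignments that were not unique were counted apart from the genes, at 27.5 to 55 M per library. Reads shared by these similar Rdh genes may therefore be missing from their counts. Of 12 tested genes of retinoid handling 0 passed (median 0.07).

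The magnesium transporters related to Slc41a2 gave 0 calls among 15 tested, with 11 negative values and a median of -0.14. The log2 fold change was -0.06 for Slc41a1 (adjusted p = 0.942) and -0.93 for Slc41a3 (adjusted p = 0.426), which averaged 1.26 ± 0.37 CPM with high iron and 2.37 ± 0.941 CPM with sufficient iron. Link protein and hyaluronan genes gave 0 calls among 10 tested. Hapln1, a link protein gene of cartilage and other matrix, averaged 0.275 ± 0.122 CPM with high iron and 1.18 ± 0.594 CPM with sufficient iron, a log2 fold change of -2.11 that did not pass in edgeR (adjusted p = 0.175) and passed in DESeq2. Hapln2 and Hapln3 had 0 reads in every library. Of 10 tested adaptor and signalling genes around Stap1 0 passed (median -0.20 between high and sufficient iron, -0.49 between low and sufficient iron). Stap2, the closest paralog, had a value of 0.24 between high and sufficient iron (adjusted p = 0.591).

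The taurine list around Pter had 12 negative values among 13 tested genes between high and sufficient iron, with a median of -0.22. In edgeR Acnat2 was the one that passed, and DESeq2 also called Bhmt. A paralog of Acnat1, the mouse enzyme that joins fatty acids to taurine, it had 5.52, 4.28 and 4.22 CPM in high-iron livers, against 19.5, 17.6 and 12.3 CPM in sufficient-iron livers and 16.5, 19.1 and 11.9 CPM in low-iron livers. It fell by 1.81 on the log2 scale below sufficient iron (adjusted p = 0.0194) and by 1.75 below low iron (adjusted p = 0.0142). Reads shared by Acnat2 and Acnat1 may be missing from the counts of both. Bhmt, a betaine-using enzyme of methionine metabolism, averaged 1390 ± 173 CPM with high iron and 3560 ± 453 CPM with low iron (-1.36, adjusted p = 0.0341), and 2480 ± 844 CPM with sufficient iron, from which high iron did not differ past the test (adjusted p = 0.245). The taurine synthesis genes Csad (-0.28, adjusted p = 0.745) and Cdo1 (-0.01, adjusted p = 0.986) and the bile acid conjugating enzyme gene Baat (-0.22, adjusted p = 0.618) did not pass between high and sufficient iron.

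**Figure D4:**
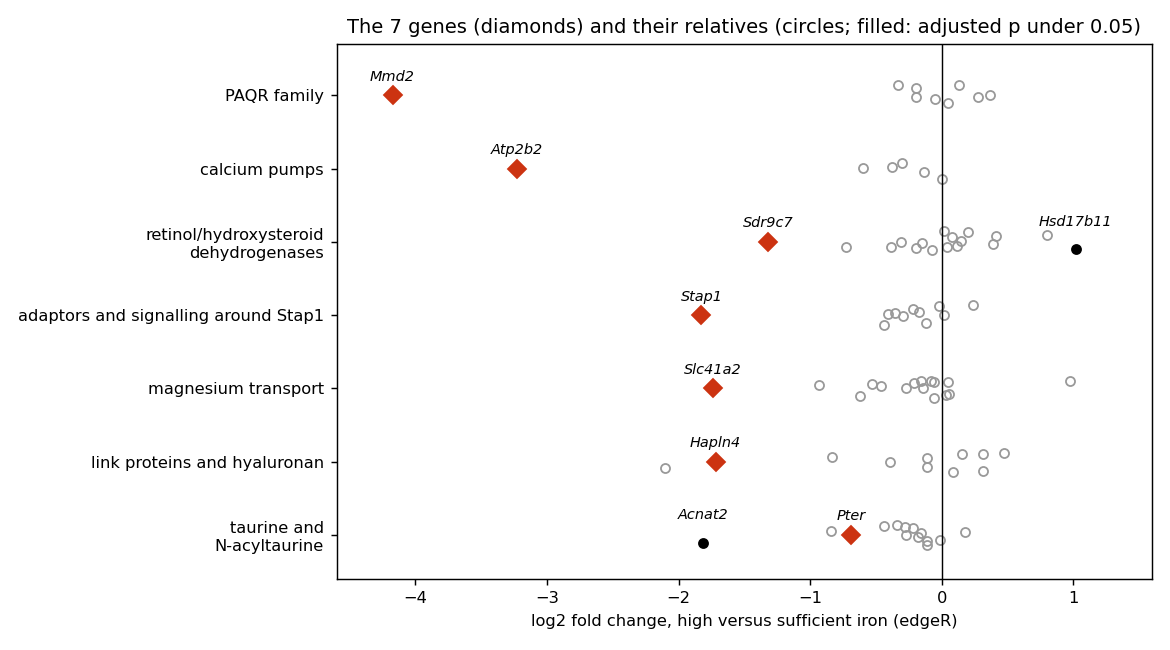
Log2 fold change between high and sufficient iron (x axis) of the 7 genes (diamonds) and of the tested genes of the list each belongs to (circles, filled where the adjusted p is under 0.05; rows are lists and the scatter within a row has no meaning). Circles cluster around 0, and Hsd17b11 at 1.02 and Acnat2 at -1.81 are the filled ones.

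The nearest protein-coding genes on either side were also examined. Of 14 such neighbours 9 were tested and 0 passed between high and sufficient iron, where 0.215% of all tested genes changed. Log2 fold changes of the 9 ran from -0.80 to 0.41, with a lowest adjusted p of 0.35.

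Across the 9 libraries, the genes whose log2 CPM ran most like each of the 7 were picked by Pearson r, as a description in which diet differences and scaling are shared. Nearest to Mmd2 were Gpc1, a cell-surface proteoglycan gene, Slc10a2, the ileal bile acid carrier gene, and Smarca4, all with r of 0.96. Slc10a2 averaged 13.2 ± 0.597 CPM with low, 18.2 ± 6.8 CPM with sufficient and 6.07 ± 1.77 CPM with high iron. For Atp2b2 they were Pcdh18 (0.97), Acnat2 (0.94) and Dpy19l1 (0.94), so the gene that fell in the Pter list was also near Atp2b2. Sdr9c7 ran with Alas2 (0.98), the erythroid first enzyme of haem synthesis, which averaged 102 ± 20.9 CPM with low, 71 ± 9.75 CPM with sufficient and 34.1 ± 5.33 CPM with high iron, and with Qsox1 (0.98) and Dynll2 (0.97). For Stap1 they were Herc6 (0.96), Itih4 (0.95) and Nhlrc3 (0.95), and for Slc41a2 the complement gene C9 (0.96), Tmem63a (0.95) and Efr3a (0.95). Hapln4 was nearest to Nacc2 (0.97), Tmem63a (0.97) and Gas7 (0.95). Pter was nearest to Atp8b4 (0.98), Wfdc2 (0.97) and the phosphate and urate transporter gene Slc17a1 (0.97). Wfdc2 averaged 0.876 ± 0.516 CPM with high iron and 5.96 ± 3.31 CPM with sufficient iron, a steeper fall than that of Pter.

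Markers of other cell types were set beside these genes, since Stap1 is known from blood cells and Hapln4 and Atp2b2 from nervous tissue. B cell markers (9 of 10 in the tables, all 9 with reads in every library) summed to 5.6 to 5.93 CPM with low, 6.65 to 9.93 CPM with sufficient and 5.98 to 8.33 CPM with high iron. Kupffer cell and macrophage markers summed to 129 to 298 CPM with low, 295 to 464 CPM with sufficient and 249 to 310 CPM with high iron, and 11 of 11 tested had negative values between high and sufficient iron with 0 past the test. Monocyte and neutrophil markers summed to 3.59 to 7.19, 6.85 to 12.2 and 5.06 to 8.81 CPM from low to high iron, and 6 of 6 tested had negative values between high and sufficient iron (median -0.59) with 0 past the test. The median of the Kupffer cell list at that step was -0.46. Between low and sufficient iron the medians were lower, at -0.64 for the Kupffer cell list and -0.72 for the monocyte and neutrophil list. The part of these cells in the lower Stap1 values was not tested. Nerve and glia markers, with 5 of 10 tested and 1 at 0 reads everywhere, summed to 7.49 to 11.7 CPM with low, 9.23 to 11.5 CPM with sufficient and 9.96 to 12.7 CPM with high iron. The part of nerve and glia cells in the Atp2b2 and Hapln4 values was not tested. Erythroid and blood markers, with 8 of 10 in the tables and 4 at 0 reads everywhere, summed to 88.7 to 127, 63.1 to 82.4 and 28.5 to 38.7 CPM from low to high iron, most of it Alas2. Only 2 of these markers were tested, and 2 of 2 had negative values between high and sufficient iron (median -1.16) with 1 past the test. The erythroid and blood sums were lowest with high iron, as the 7 genes were. They were also higher in every low-iron than in any sufficient-iron liver, a step at which all 7 genes overlapped. The part of erythroid cells in the result was not tested.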

How the data were processed

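Liver RNA of 9 mice, 3 per diet, was sequenced as 9 libraries (TruSeq RNA libraries, HiSeq 2000, per the labels' protocols). The authors deposited 1 table of raw counts of reads per gene symbol for each library, with 23420 genes and 5 category entries that were left out of library sizes and tests. FastQC and the builds mm10 and mm9, none with a stated role, appear in the submitters' processing notes. No source used here gives the aligner, the counter or the strand setting. Positions are from GENCODE M21 (GRCm38) and serve as annotation only.

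The analysis used edgeR 4.0.16 (R 4.3.3). The filterByExpr filter (CPM cutoff 0.373) left 13020 genes. All 7 genes passed, with Mmd2 above the cutoff in 8 of 9 libraries, 2 of the 3 high-iron ones among them, and the other 6 in all 9. CPM used TMM-scaled library sizes and, on the log2 scale, 2 as prior count. The 9 libraries entered a single quasi-likelihood fit by diet. The Benjamini-Hochberg adjustment covered every tested gene, and calls needed an adjusted p under 0.05. The SE is the fold change over the root of F. CPM per kb divides by the union of all annotated exons, which understates genes with several isoforms. The fit was also run on counts simulated with its own dispersions. That checks the code only and cannot show how calls depend on single libraries.

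Alternatives were other scalings and filters, DESeq2 1.42.0, limma-voom (limma 3.58.1) with and without sample quality weights, the 6 compared libraries alone, Rn45s and Lars2 left out, pairs of libraries left out, and each library left out in turn. Libraries of a diet differed beyond sampling noise and are separate mice. Diets and libraries carry no batch labels. Precision rests on 3 mice per diet, and Poisson intervals cover counting error only. The genes, lists, motifs and alternatives were chosen with earlier results of these data known. Named beyond the 7 are the closest paralogs, list genes past a test, and the 3 tested genes with the highest r to each of the 7 genes.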

Additional observations from a re-analysis of the deposited data

How the results depend on the processing

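All 7 genes had negative values between high and sufficient iron and between high and low iron in all 20 alternatives of each. The choice of the genes fixes these signs, and nothing is read from them. Between high and sufficient iron Mmd2 ran from -4.61 to -3.50, Atp2b2 from -3.53 to -2.89, Stap1 from -2.01 to -1.55, Slc41a2 from -2.15 to -1.48, Hapln4 from -1.97 to -1.36, Sdr9c7 from -1.48 to -1.07 and Pter from -0.75 to -0.62 (log2). Calls depended more on the libraries: of the 7, 7 passed with DESeq2 (of 211 genes called), 7 with limma-voom and quality weights (of 92), 3 with limma-voom (of 26), 2 with the 6 libraries alone (of 29), 1 without high-iron replicate 12 (of 8) and 0 without high-iron replicate 4 or 8 (of 0). Between high and low iron 7 passed with DESeq2 (of 352), 3 with limma-voom (of 64), and 0 to 7 with 1 library left out. Between low and sufficient iron 0 of 7 passed in any alternative, and signs near 0 changed. With DESeq2 that count was fixed, since it gave none of the 7 an adjusted p. Mmd2 had 0.27 with sample quality weights, 0.51 without low-iron 1 and sufficient-iron 6, and -0.51 to 0.43 with 1 library left out. Hapln4 had -0.088 and -0.18 in these settings and -0.16 to 0.45 with 1 library left out. Atp2b2 ran from -1.13 to -0.49 with 1 library left out. Stap1 had 0.057 without low-iron 1 and sufficient-iron 6. Slc41a2 had 0.11 in that setting, 0.15 without low-iron 1 and high-iron 12, and -0.35 to 0.14 with 1 library left out. Pter ran from -0.085 to 0.027 with 1 library left out. The cause was not tested. Relatives called between high and sufficient iron, 2 in the main test, were 5 with DESeq2, 4 without low-iron 1 and sufficient-iron 6, 1 without low-iron 1 and high-iron 12, and 0 to 3 with 1 library left out. Between high and low iron, 3 in the main test, they were 7 with DESeq2, 6 with quality weights, 6 and 1 without those pairs, and 0 to 4 with 1 library left out. Between low and sufficient iron they were 5 with DESeq2 and 0 otherwise. The median r within diets ran from 0.03 to 0.27. With 5 to 17 reads of Mmd2 per high-iron library, its fold depends on few reads. No fit with a block was made, since the diets share no replicate number and the labels do not tie libraries of different diets together.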

Other observations

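Sex-biased liver genes, a group that growth hormone controls in mice, gave a pair of calls between high and sufficient iron, where 0.115% of all tested genes were called lower. Of 15 tested male-biased genes 1 fell, C8a, a complement gene, at 237 ± 26.4 CPM with high iron and 392 ± 19.8 CPM with sufficient iron (log2 fold change -0.73, edgeR adjusted p = 0.0479). The list had 9 negative values and a median of -0.14. Of 22 listed female-biased genes 10 were tested. Of these 1 fell, Prlr, the prolactin receptor gene, at 34.7 ± 4.86 CPM with high iron and 74.4 ± 11.4 CPM with sufficient iron (-1.10, edgeR adjusted p = 0.0381). That list had 5 negative values and a median of -0.31. With each library left out in turn, C8a passed only without low-iron replicate 1 and Prlr only without low-iron replicate 1 or 9.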
